A study of Rattus norvegicus with 24 samples.

Results

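Collagen chains are the polypeptides that assemble, as homotrimers or heterotrimers, into the triple helix of each collagen type. They were taken here as every gene whose symbol in the authors' deposited table is Col, a type number, the letter a and a chain number. The pattern found 59 of 30367 probes and 42 symbols among 26036 features, a feature being a gene or a probe with no gene name. 1 of the symbols, Col4a3bp, matches by its spelling only: RefSeq names it Cert1, a ceramide transporter, and it was left out. The other 41 are chains, of which 11 are fibrillar, 6 belong to the basement membrane type IV and 24 to other types. Each was read from 1 probe, the one with the highest mean over 24 arrays, and 15 chains had several probes.

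Fibrillar collagens, type I and type III above all, form the banded fibrils that carry tension in tendon and in the connective tissue sheaths of muscle, and small amounts of type V and type XI set how thick the fibrils grow. Type IV chains form the sheet-like network under each muscle fibre and capillary, and type VI filaments link that sheet to the fibrils around it. Fibril-associated chains such as those of types XII, XIV and XXII sit on fibril surfaces, and type XXII is known from the junction of muscle and tendon.

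The RNA came from the mid-belly of the soleus, a slow postural muscle of the lower leg, of female rats about 14 weeks old. SED rats spent 8 weeks in ordinary cages. DETR rats, the detrained group, ran on a voluntary wheel for 4 weeks and then had 4 weeks without it, and TR rats had the wheel for all 8 weeks. All 3 groups, SED included, then ran for 1 h on a forced wheel at 20 m/min and were sampled 24 h later, so no group shows muscle without that bout. Each group held 8 rats with 1 array each, and the comparisons ask whether the collagen RNA seen 1 day after a bout differs with the running history.

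The arrays lay on 3 slides of 8 that held the groups unevenly. Slide 1 carried 2 SED and 6 DETR rats, slide 2 carried 4 SED and 4 TR rats, and slide 3 carried 2 SED, 2 DETR and 4 TR rats. Slide 3 was dim: 47.9% to 70.4% of its probes were well above background on an array, against 72.6% to 85.4% on slide 1 and 67.6% to 79.7% on slide 2. Repeat spots of a probe spread most on TR 2, TR 5, TR 7 and TR 8, with a median coefficient of variation of 12.3% to 34.1% against 4.68% to 9.89% on the other 20 arrays. All 8 skeletal muscle markers (Acta1, Ckm, Myh7, Tnni1, Tnnt1, Tpm3, Myl3 and Mb) passed the filter on low signal. Levels are log2 signals relative to the 75th percentile of the same array and are not adjusted for slide. They can be compared for 1 probe between arrays of a slide, but not between probes. Across slides they also differ with the slide, whose term was called for 67.8% of features. Group ranges and medians of levels therefore carry the uneven spread of the groups over the slides. A difference is the group effect in a limma fit with slide as a term, given with its standard error (SE), and adjusted p-values run over all 20311 features that passed the filter.

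No collagen chain passed the test between any pair of groups. 37 of the 41 chains passed the filter, namely all 11 fibrillar, all 6 type IV and 20 other chains. With detraining against sedentary life, DETR minus SED, limma called 0 of 37 at an adjusted p of 0.05, and 0% of all features. 1 chain, Col4a3, higher in DETR, had an unadjusted p under 0.05, against 3.93% of features, of which the higher side made up 3.03% of all features. For TR minus SED limma again called 0 of 37 chains and 0% of features, while 5 of 37 chains had an unadjusted p under 0.05 against 10.4% of features. Col7a1, Col4a5 and Col17a1 were on the higher side in TR, where 6.32% of features lay, and Col1a1 and Col22a1 on the lower side, with 4.11%. For TR minus DETR the count was also 0 of 37 and 0%, and 3 chains had an unadjusted p under 0.05 against 9.92% of features. Col7a1 was on the higher side in TR, with 4.2% of features, and Col3a1 and Col26a1 on the lower side, with 5.72%. The smallest adjusted p of any chain was 1 for DETR minus SED, 0.352 for TR minus SED and 0.344 for TR minus DETR. The ranges of 2 groups never separated for a chain, where 0.064%, 0.0246% and 0.123% of features separated in the same order of comparisons.

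The point estimates had no common direction. In DETR 18 of 37 chains were above SED by some amount, against 58% of features, and in TR 15 were above SED, against 52.8%, and 22 below, against 47.2%. TR was above DETR for 15 of 37, against 45.5%, and below for 22, against 54.5%. The median difference of the 37 chains was −0.02, −0.04 and −0.13 in that order, and the median of all features was 0.03, 0.01 and −0.03. Among fibrillar chains the medians were −0.02, −0.06 and −0.16, with 9 of 11 lower in TR than in DETR. The 6 type IV chains had medians of 0.12, 0.08 and 0.09. For 12 chains several probes passed the filter. Their probes differed in sign within a chain for 6 of 12 in DETR minus SED, 5 in TR minus SED and 6 in TR minus DETR. The signs of such chains thus depend on the probe chosen. The 95% interval lay within 1 log2 unit of 0 for 30 of 37 chains in DETR minus SED, for 31 in TR minus SED and for 27 in TR minus DETR, against 88.3%, 88.5% and 78.3% of features, so for most chains a doubling or more was outside the interval.

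**Figure D1:**
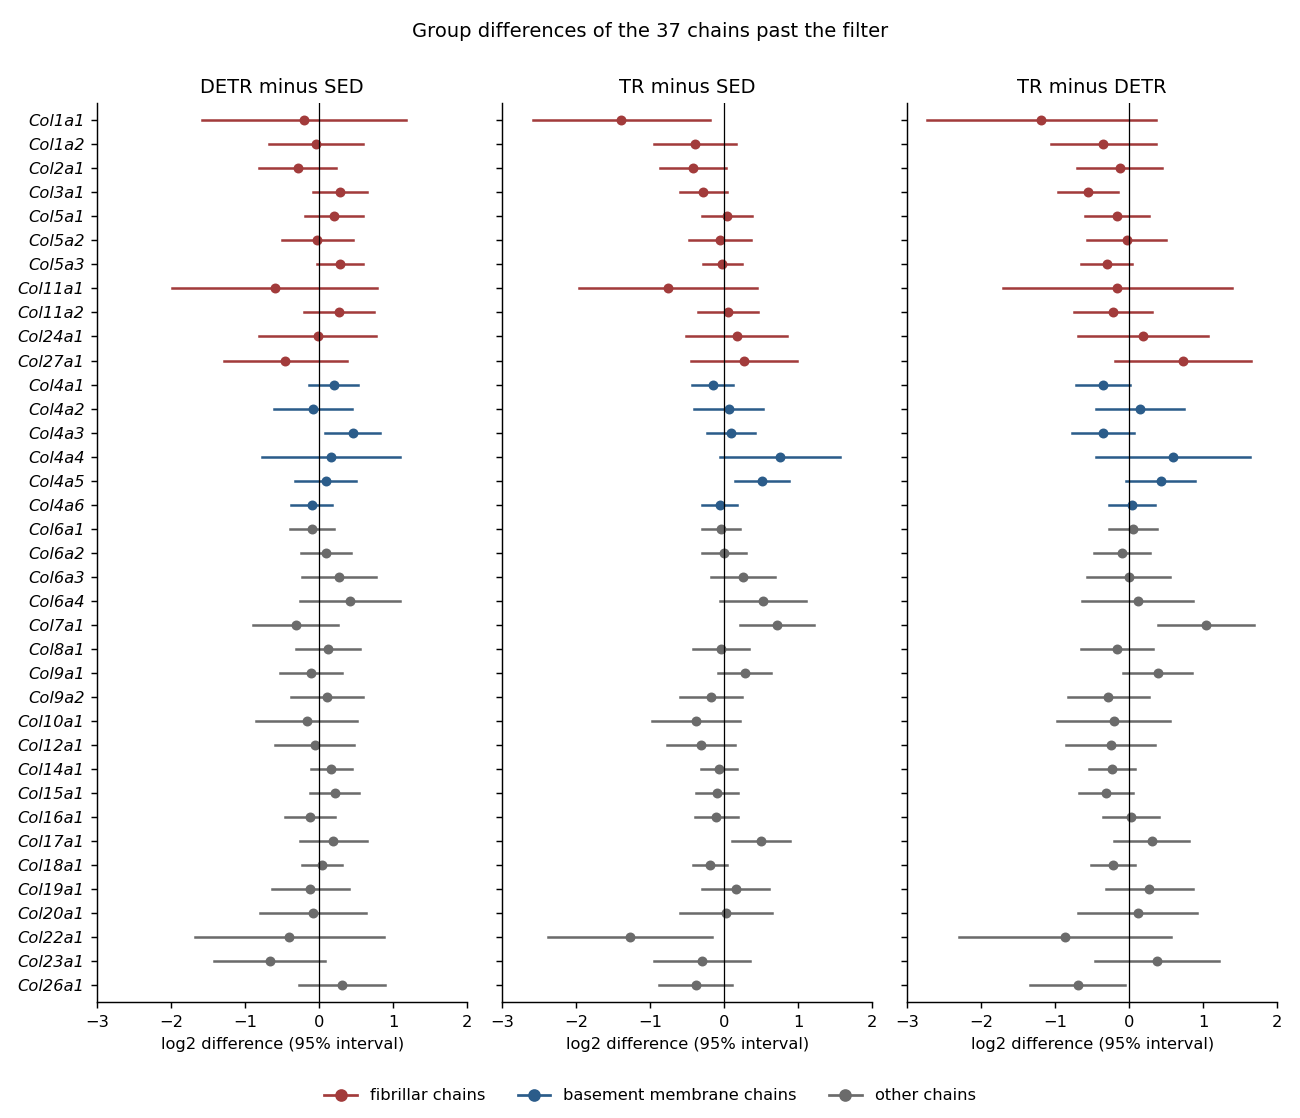
Log2 differences of the collagen chains between groups, with 95% intervals from the limma fit with slide as a term. Intervals are widest for Col1a1, Col11a1 and Col22a1, and no chain passed an adjusted p of 0.05.

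Type I collagen is built from the chains Col1a1 and Col1a2, and type XI from chains that include Col11a1. The sequences upstream of the start sites of 33 chains were found in RefSeq (rat assembly GRCr8), and those of Col1a2 and Col11a1 are shown because the levels of Col1a2 varied with its partner Col1a1 and those of Col11a1 with a tendon gene, as given further on. The stretch between Col4a1 and Col4a2 is shown because it is the whole space between the start sites of 2 partner chains, whose levels are set side by side later. Each of the first 2 is the 250 bases before the start, on the plus strand: Col1a2 at chr4:33518307-33518556 and Col11a1 at chr2:204508886-204509135. The third runs from Col4a2 to Col4a1 on the plus strand, chr16:84885521-84885596. Capitals mark CCAAT, here as its reverse complement ATTGG, in the first 2, and GGGCGG, here as CCGCCC, in the third.
Col1a2: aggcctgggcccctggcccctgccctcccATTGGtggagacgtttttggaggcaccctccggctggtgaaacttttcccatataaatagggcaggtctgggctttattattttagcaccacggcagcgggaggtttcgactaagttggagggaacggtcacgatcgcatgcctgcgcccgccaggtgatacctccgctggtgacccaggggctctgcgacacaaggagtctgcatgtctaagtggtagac
Col11a1: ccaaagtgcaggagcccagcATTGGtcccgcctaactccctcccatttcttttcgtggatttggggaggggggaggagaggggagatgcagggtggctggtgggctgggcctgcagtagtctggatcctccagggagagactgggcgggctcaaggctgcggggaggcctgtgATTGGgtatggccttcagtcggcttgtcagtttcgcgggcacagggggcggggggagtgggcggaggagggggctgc
Col4a1 and Col4a2: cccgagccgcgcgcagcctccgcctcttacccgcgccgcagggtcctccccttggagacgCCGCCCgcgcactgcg
CCAAT, searched on both strands, lay in 27.3% of the 33 chain promoters and in 34.3% of all 27457 promoters of that length. TATAAA, also on both strands, lay in 12.1% and 13.1%, and GGGCGG in 57.6% and 32.4%. These matches describe letters and are not shown to be sites.

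Among the type I chains, Col1a1 ranged from 2.08 through a median of 2.93 to 4.86 in SED, from 2.10 through 2.89 to 4.08 in DETR and from −1.72 through 2.06 to 3.73 in TR. The 4 lowest of the 24 arrays were TR rats, but TR 5 and TR 1 lay among the upper arrays and all groups overlapped. The value of TR 2 came from 2 spots of the same probe with processed signals of 2747 and 10.61, of which the dim one was not well above background. Col1a1 differed by −1.39 ± 0.58 (SE) in TR minus SED (limma adjusted p = 0.431), by −1.19 ± 0.74 in TR minus DETR and by −0.21 ± 0.66 in DETR minus SED. Within slides TR minus SED was −2.24 on slide 2, which holds TR 2, and −0.51 on slide 3. Without TR 2 the difference was −0.81 ± 0.41 (adjusted p = 0.526). Without discordant spots, those not well above background where another spot of the probe on the array was and was over 4 times as bright, it was −0.84 ± 0.39 (adjusted p = 0.47). A second Col1a1 probe read 0.59 on TR 2, against 0.28 to 0.95 on the other TR arrays of that slide, and differed by −0.50 ± 0.26 in TR minus SED.

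Col1a2, the partner chain, ranged from 3.45 through 4.91 to 6.34 in SED, from 3.60 through 4.72 to 5.69 in DETR and from 3.06 through 4.57 to 5.35 in TR. The 7 lowest arrays were all on slide 3 and came from all 3 groups. Its differences were −0.04 ± 0.31 in DETR minus SED, −0.39 ± 0.27 in TR minus SED (−0.23 without SED 6) and −0.35 ± 0.34 in TR minus DETR (−0.59 without TR 5). The SED 6, SED 4 and DETR 5 arrays held the 3 highest values of both type I chains.

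Col3a1, which forms the fine fibrils around muscle fibres, ranged from 2.12 through 2.73 to 3.20 in SED, from 2.54 through 2.94 to 3.39 in DETR and from 2.26 through 2.49 to 2.78 in TR. TR arrays lay in the lower part of the range and DETR arrays in the upper, with TR 8, TR 1 and TR 2 above DETR 1 and DETR 3. TR minus DETR was −0.56 ± 0.20 (limma adjusted p = 0.419), and on slide 3, the only slide with both groups, it was −0.57. DETR minus SED was 0.28 ± 0.17, with −0.047 within slide 3 and 0.079 without SED 2. TR minus SED was −0.28 ± 0.15.

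**Figure D2:**
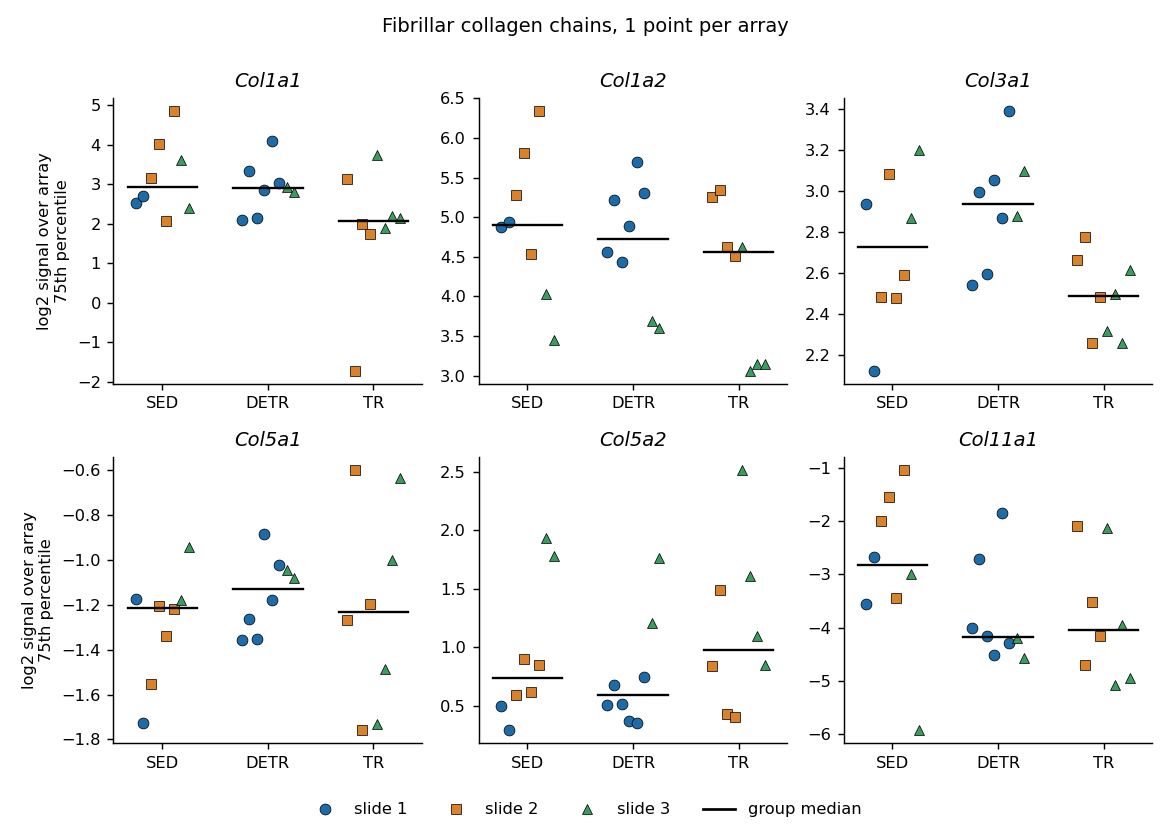
Levels of fibrillar chains on each array, in log2 signal relative to the array's 75th percentile, by group, with the slide shown for each point and the group median as a bar. Groups overlap for every chain, and the Col1a1 value of TR 2 at −1.72 stands below the others.

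The type V chains, which seed fibrils and limit their width, had small differences, none called. Col5a1 had medians of −1.21 in SED, −1.13 in DETR and −1.23 in TR, and Col5a2 had 0.73, 0.60 and 0.97. The differences of Col5a1 were 0.20 ± 0.19, 0.04 ± 0.16 and −0.16 ± 0.21 in DETR minus SED, TR minus SED and TR minus DETR, and those of Col5a2 were −0.02 ± 0.23, −0.06 ± 0.20 and −0.03 ± 0.26. Col5a3 had medians of 0.25, 0.61 and 0.35, and DETR minus SED was 0.28 ± 0.15 with overlapping groups.

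Col11a1 was among the most variable chains. It ranged from −5.94 through −2.83 to −1.04 in SED, from −4.58 through −4.18 to −1.85 in DETR and from −5.08 through −4.05 to −2.09 in TR. High arrays were found in every group (SED 6, SED 4, DETR 5, SED 3, TR 1 and TR 5), so the differences were imprecise: −0.60 ± 0.67 in DETR minus SED, −0.76 ± 0.58 in TR minus SED and −0.16 ± 0.75 in TR minus DETR. Its probe was well above background on 19 of 24 arrays. Col2a1, the cartilage fibril chain, differed by −0.29 ± 0.25, −0.42 ± 0.22 and −0.13 ± 0.28 in the same order. Col11a2, Col24a1 and Col27a1 completed the class, with the widest estimate for Col27a1 at 0.73 ± 0.45 in TR minus DETR.

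The spread of 4 chains between rats, beside group and slide, followed the tendon marker Tnmd. Tnmd encodes tenomodulin, a membrane protein of tendon cells, and was well above background on 17 of 24 arrays. It ranged from −6.04 through −2.22 to −0.45 in SED, and its lowest values were on TR 2 (−6.43) and DETR 6 (−6.36). Its highest arrays, SED 6, SED 4 and TR 1, were also among the 5 highest for Col11a1. Added to the fit beside group and slide after the data were seen, the Tnmd level had a called slope for 4 of 37 chains, all positive, against 0.118% of features called and 0.113% called with a positive slope. They were Col11a1, Col22a1, Col1a1 and Col12a1.

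The slope gives the log2 change of a chain per log2 unit of Tnmd. It was 0.63 ± 0.055 (SE) for Col11a1 (limma adjusted p = 1.25e-06), 0.56 ± 0.0615 for Col22a1 (adjusted p = 3.6e-05), 0.53 ± 0.091 for Col1a1 (adjusted p = 0.0113) and 0.20 ± 0.038 for Col12a1 (adjusted p = 0.0372). Col11a1 and Col22a1 were called in all 32 settings run for this test, with slopes from 0.55 to 0.70 and from 0.48 to 0.67. Col1a1 was called in 26 of them and Col12a1 in 13. Without TR 5 only Col11a1 and Col22a1 were called, and Col1a1 was not called without TR 2 (adjusted p = 0.0562) or without discordant spots (adjusted p = 0.124). Col1a2 had a slope of 0.17 ± 0.058 (adjusted p = 0.429), and Col3a1 had −0.07 ± 0.036 (adjusted p = 0.53).

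With each slide centred on its own mean, Col11a1 and Tnmd correlated over 24 arrays with Pearson's r = 0.94 and Spearman's rho = 0.95 (permutation p = 1e-05 for each, the smallest the permutations can give). Within slides 1, 2 and 3 the r was 0.88, 0.94 and 0.99, and without TR 2 and TR 5, the arrays farthest from the median of Tnmd, the centred r was 0.92. For Col22a1 r was 0.89 and rho 0.91 (permutation p = 1e-05 for each), with 0.84, 0.97 and 0.86 within slides. Col12a1 had r = 0.77 (permutation p = 2e-05) and rho = 0.86, with 0.77, 0.72 and 0.86 within slides. Col1a1 had r = 0.78 (permutation p = 3e-05) and rho = 0.76, with 0.49, 0.94 and 0.85. Correlations with Tnmd were computed for 37 chains, and their permutation p-values are unadjusted.

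**Figure D3:**
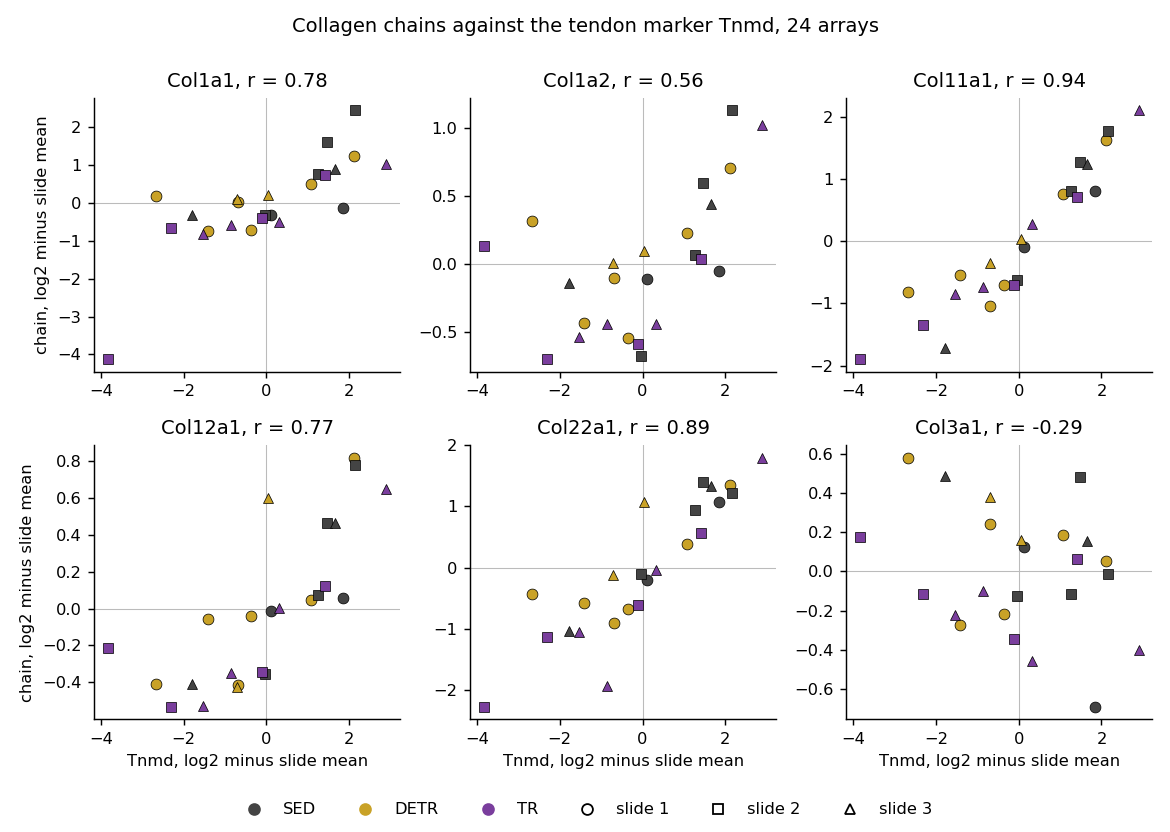
Slide-centred log2 levels of 6 collagen chains against the slide-centred log2 level of Tnmd on 24 arrays, coloured by group. Col11a1 (r = 0.94) and Col22a1 (r = 0.89) follow Tnmd, and Col3a1 has r = −0.29.

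The other features called for the Tnmd term numbered 20, of which 5 were from the tendon list: Kera, Fmod, Chad, Comp and Thbs4. All 10 genes of that list (those and Tnmd, Scx, Mkx, Cilp2 and Prg4) passed the filter and none was called between groups. Their point estimates were lower in 8 of 10 genes in DETR minus SED, in 9 in TR minus SED and in 8 in TR minus DETR, with medians of −0.72, −0.87 and −0.22. The summed level of the list was 3.74 to 6.31 in SED, 3.78 to 5.60 in DETR and 3.44 to 5.70 in TR. With Tnmd as a covariate, TR minus SED was −0.68 ± 0.38 for Col1a1 and −0.52 ± 0.26 for Col22a1. TR 2, which had the lowest Tnmd level (−6.43) and a discordant Col1a1 spot, was kept in that fit. Without discordant spots the Tnmd slope of Col1a1 was 0.31 (limma adjusted p = 0.124). In whole muscle, fewer cells of a type and less RNA per cell cannot be told apart, and the part of tendon tissue in these differences was not tested.

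Among partner chains, those of type VI correlated over all arrays, those of type I did so by rank and once slides were centred, and no correlation was called for type IV. Of 6 pairs fixed for correlation, adjusted over those 6, Col6a1 and Col6a2 had a pooled r of 0.86 and rho of 0.89 over 24 arrays (permutation p adjusted = 6e-05 for each). The within-slide r was 0.86, 0.85 and 0.58 on slides 1, 2 and 3, and the slide-centred r of 0.72 (adjusted permutation p = 0.00099) became 0.53 without TR 2 and TR 5. Col1a1 and Col1a2 had a pooled r of 0.29 (adjusted permutation p = 0.335) and rho of 0.51 (adjusted permutation p = 0.0239). Their within-slide r was 0.96, 0.46 and 0.96, the slide-centred r was 0.59 (adjusted permutation p = 0.015), and without TR 2 and SED 6 it was 0.89. Without discordant spots the slide-centred r was 0.95, and with the authors' deposited table it was 0.90. Col1a1 and Tnmd, also a fixed pair, had a pooled r of 0.67 (adjusted permutation p = 9e-05) and rho of 0.70.

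No correlation was called for Col1a1 with Col3a1, with a pooled r of 0.15 (adjusted permutation p = 0.589), or Col4a1, with a pooled r of −0.03 (adjusted permutation p = 0.88). Col4a1 and Col4a2, which form 1 heterotrimer, had a pooled r of −0.26 (adjusted permutation p = 0.335), with 0.29, 0.75 and −0.57 within slides. Both genes start 77 bases apart on opposite strands of chromosome 16, across the stretch printed above. Col4a3 and Col4a4 start 413 bases apart on chromosome 9, and Col4a5 and Col4a6 start 1415 bases apart on chromosome X. Their slide-centred r was 0.17 and −0.17 (adjusted permutation p = 0.58 for each, pairs added after the data were seen).

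The type IV chains of the general basement membrane, Col4a1 and Col4a2, had no called difference. Col4a1 ranged from 0.77 through 2.22 to 2.50 in SED, from 1.24 through 2.09 to 2.64 in DETR and from 0.33 through 1.53 to 2.41 in TR. The 8 lowest arrays were the 8 of slide 3, of all groups. TR minus DETR was −0.35 ± 0.18 (limma adjusted p = 0.504) and −0.20 without DETR 7, DETR minus SED 0.19 ± 0.16 and TR minus SED −0.16 ± 0.14. Col4a2 had medians of −1.82 in SED, −1.70 in DETR and −1.91 in TR, and its 3 differences lay between −0.08 ± 0.26 and 0.14 ± 0.29.

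The remaining type IV chains are those of specialised basement membranes such as the kidney filter and the neuromuscular junction. Col4a3 ranged from −5.34 through −4.94 to −4.28 in SED, from −4.79 through −4.58 to −4.40 in DETR and from −5.38 through −4.91 to −4.19 in TR. All DETR arrays lay above the SED median, inside the SED range. DETR minus SED was 0.45 ± 0.18 (limma adjusted p = 1), with 0.45 on slide 1 and 0.49 on slide 3. The probe was well above background on 17 of 24 arrays.

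Col4a5 ranged from −4.61 through −3.67 to −3.37 in SED, from −4.05 through −3.46 to −2.95 in DETR and from −3.74 through −3.43 to −2.58 in TR. The 3 lowest SED arrays lay below all TR arrays, and the others overlapped. TR minus SED was 0.51 ± 0.17 (limma adjusted p = 0.354), with 0.30 on slide 2 and 0.81 on slide 3. Col4a4 differed by 0.75 ± 0.39 in TR minus SED, where TR 5 stood at −1.29 above a TR median of −4.44, and by 0.38 ± 0.22 without TR 5. Col4a6 differed by −0.10 ± 0.13, −0.06 ± 0.12 and 0.04 ± 0.15.

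**Figure D4:**
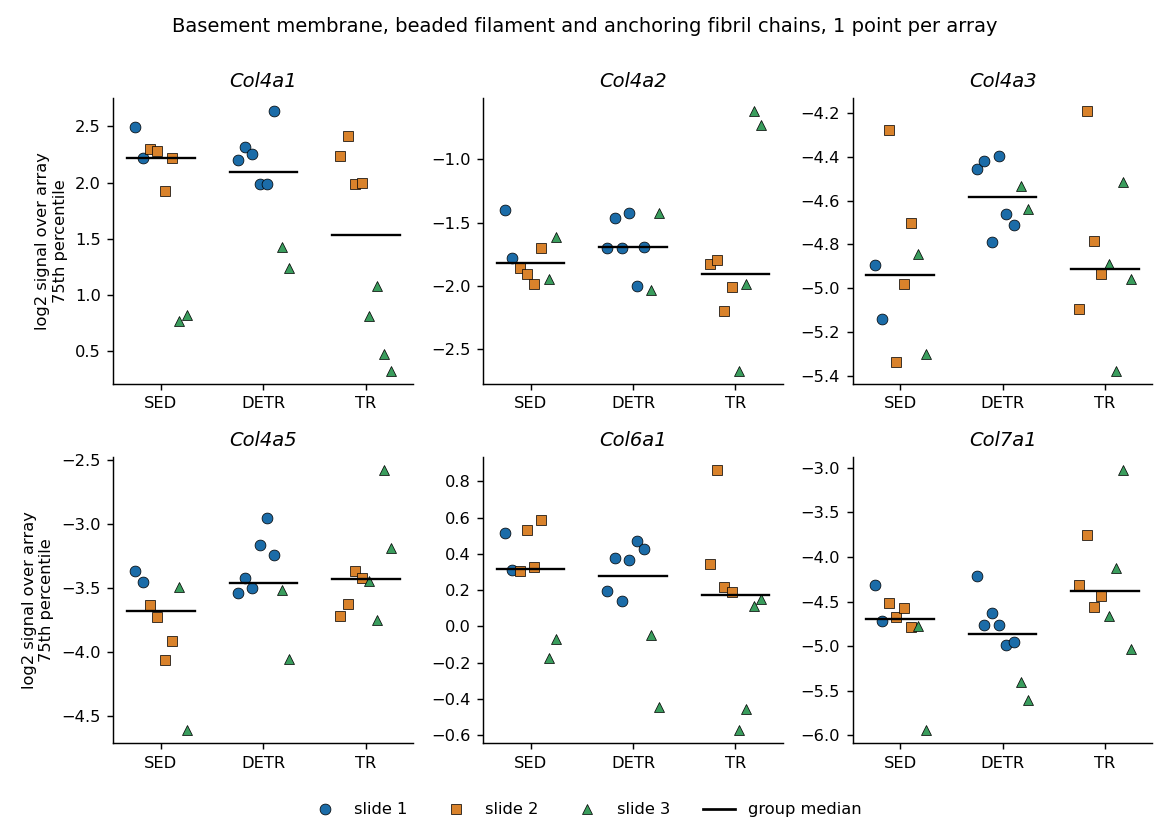
Levels of type IV, type VI and further chains on each array, in log2 signal relative to the array's 75th percentile, by group, with the slide shown for each point and the group median as a bar. Slide 3 arrays are low for Col4a1 in all 3 groups.

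Of the type VI chains, which tie the basement membrane to the fibrils, Col6a1 ranged from −0.18 through 0.32 to 0.59 in SED, from −0.45 through 0.28 to 0.47 in DETR and from −0.57 through 0.17 to 0.86 in TR, and Col6a2 had medians of 2.52, 2.51 and 2.44. Groups overlapped throughout. The differences of Col6a1 were −0.10 ± 0.14 in DETR minus SED, −0.04 ± 0.12 in TR minus SED and 0.05 ± 0.16 in TR minus DETR. For Col6a2 the 95% interval of TR minus SED was −0.30 to 0.29. Col6a3 was read from a probe well above background on 10 arrays: 3 of SED, 6 of DETR and 1 of TR. Its differences were 0.26 ± 0.24, 0.26 ± 0.21 and −0.01 ± 0.27, and both comparisons with TR rest on a probe near background there. Its sign changed in 0 of 42 alternative settings in DETR minus SED and in 6 of 42 in TR minus SED. Col6a4 differed by 0.53 ± 0.28 in TR minus SED.

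Of the fibril-associated chains, Col22a1 varied most. It ranged from −3.73 through −1.41 to −0.67 in SED, from −3.44 through −2.90 to −1.19 in DETR and from −4.64 through −2.97 to −0.89 in TR. SED 4, SED 6, TR 5 and SED 3, all high for Tnmd, were also the highest for Col22a1. TR 1 was not among them, though its Tnmd level of −1.19 was above SED 3 (−1.34) and TR 5 (−1.35). Apart from TR 5, no TR array was above −1.51 for Col22a1. TR minus SED was −1.27 ± 0.53 (limma adjusted p = 0.439), with −1.73 on slide 2 and −0.46 on slide 3, beside the −1.34 ± 0.85 of Tnmd. DETR minus SED was −0.40 ± 0.62, between −0.72 without SED 8 and −0.088 without SED 2. TR minus DETR was −0.87 ± 0.69, between −1.33 without TR 5 and −0.55 without DETR 7.

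Col12a1, a chain of tendon and fascia fibrils, ranged from −0.94 through −0.53 to 0.32 in SED, from −1.35 through −0.93 to 0.33 in DETR and from −0.99 through −0.65 to 0.37 in TR. The 5 highest arrays came from all 3 groups, and TR minus SED was −0.31 ± 0.22. Col14a1, found on fibrils of the muscle sheaths, ranged from 0.26 to 1.48 in SED, from 0.48 to 1.47 in DETR and from 0.03 to 1.66 in TR, and TR minus SED was −0.07 ± 0.12. Col9a1 and Col9a2, which sit on cartilage fibrils, differed in TR minus DETR by 0.39 ± 0.23 and −0.28 ± 0.26 with overlapping groups. Col16a1, Col19a1 and Col20a1 differed by −0.11 ± 0.14, 0.15 ± 0.22 and 0.03 ± 0.30 in TR minus SED. Across the 8 fibril-associated chains past the filter the medians were −0.10, −0.09 and −0.11 in DETR minus SED, TR minus SED and TR minus DETR.

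Col15a1 and Col18a1, proteoglycan chains anchored at basement membranes whose ends can be released as restin and endostatin, had medians of 2.40 and −1.60 in SED, 2.23 and −1.72 in DETR and 1.94 and −1.90 in TR. These medians are not adjusted for slide, and slide 3 held 4 of the 8 TR arrays. The difference of slide 3 from the mean of slides 1 and 2 was −0.90 for Col15a1 and −0.52 for Col18a1. With slide as a term, Col15a1 differed by 0.21 ± 0.16 in DETR minus SED, −0.10 ± 0.14 in TR minus SED and −0.31 ± 0.18 in TR minus DETR. Col18a1 differed by 0.04 ± 0.13, −0.19 ± 0.11 and −0.22 ± 0.14 in the same order.

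Col7a1, the chain of anchoring fibrils in skin, gave the smallest p of any chain but at a dim probe. It ranged from −5.94 through −4.69 to −4.31 in SED, from −5.60 through −4.86 to −4.22 in DETR and from −5.03 through −4.38 to −3.03 in TR. The 3 arrays at the bottom were slide 3 arrays of SED and DETR, and the top value, TR 7, was not well above background. TR minus DETR was 1.04 ± 0.31 (limma adjusted p = 0.344) and TR minus SED 0.72 ± 0.24 (adjusted p = 0.352), with 0.37 on slide 2 and 1.15 on slide 3. Without TR 7 TR minus DETR was 0.77 ± 0.23, without slide 3 it was 0.58, and with normexp background correction 0.41.

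Col17a1, a transmembrane chain of skin hemidesmosomes, ranged from −5.94 to −3.85 in SED, from −5.62 to −3.69 in DETR and from −6.10 to −2.96 in TR, with slide 3 above the other slides. TR minus SED was 0.49 ± 0.19 (limma adjusted p = 0.409). Col26a1 differed by −0.70 ± 0.31 in TR minus DETR (limma adjusted p = 0.49), and its 3 lowest arrays, TR 7, TR 2 and TR 5, were not well above background. Without TR 7 the difference was −0.41, and with the mean of all its probes past the filter 0.17. Col23a1, another transmembrane chain, differed by −0.67 ± 0.36 in DETR minus SED. SED 1 read −2.82 against an SED median of −5.51, and without it the difference was 0.055.

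Col8a1 and Col10a1, which form hexagonal networks, differed by −0.04 ± 0.18 and −0.38 ± 0.28 in TR minus SED. Col13a1, Col25a1, Col6a6 and Col8a2 did not pass the filter, being well above background on 3, 2, 4 and 0 arrays.

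The slide term was called for more chains than any difference between groups. It passed the test for 21 of 37 chains (56.8%), against 67.8% of features. Of the 21, 12 were higher and 9 lower on slide 3 than on the mean of slides 1 and 2. Col6a4 (2.44), Col17a1 (1.77) and Col9a1 (1.69) had the highest differences, and Col1a2 (−1.41), Col4a1 (−1.28) and Col15a1 (−0.90) the lowest. Col3a1 (0.11), Col4a2 (0.13) and Col5a1 (0.14) were not called.

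**Figure D5:**
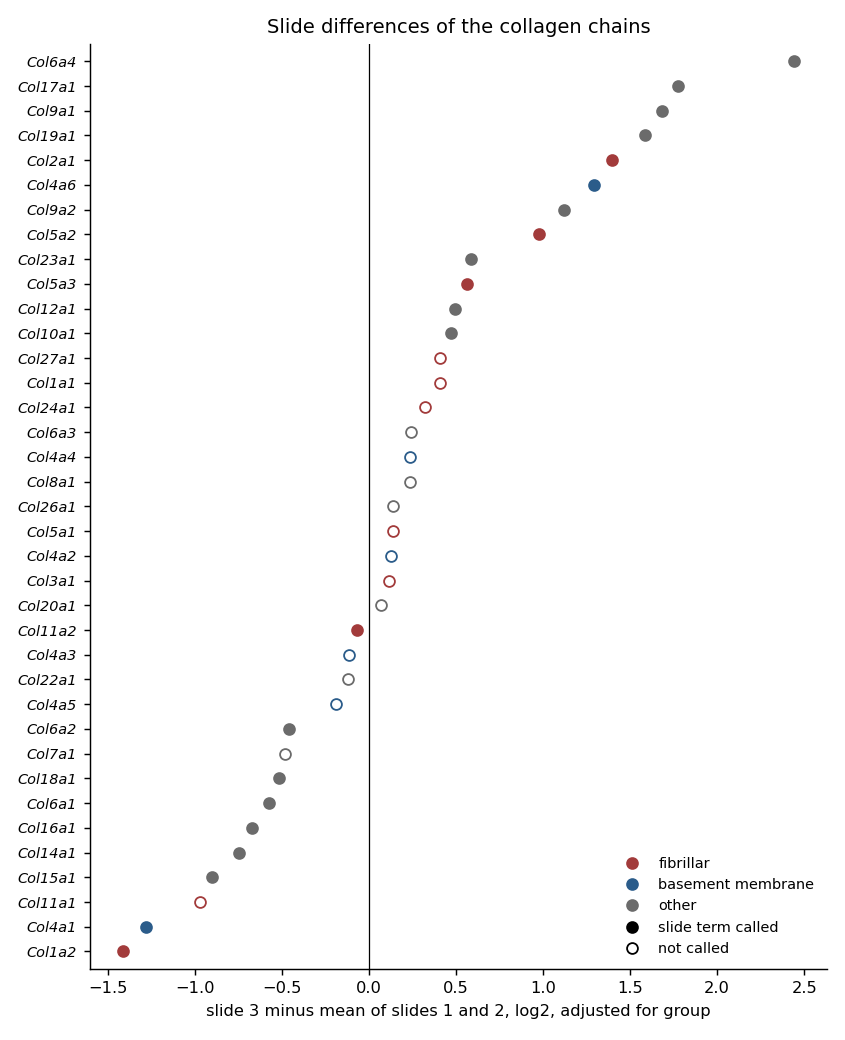
Log2 difference of each collagen chain between slide 3 and the mean of slides 1 and 2, from the fit with group as a term. Differences run from −1.41 for Col1a2 to 2.44 for Col6a4.

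Once group and slide were removed, the residual standard deviation among arrays was 1.18 for Col11a1 and 1.18 for Col1a1, above 99.2% of all features in each case. It was 1.09 for Col22a1 and 0.54 for Col1a2. For Col1a1 this spread includes TR 2, whose value came from spots of 2747 and 10.61. The SE of TR minus SED was 0.58 for that Col1a1 probe and 0.26 for the second. The median residual standard deviation of the 37 chains was 0.40, against 0.33 for all features.

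The enzymes and partners that build, bind and degrade collagen had no called gene either. Of the 21 genes for collagen synthesis and secretion, such as the prolyl hydroxylases and the chaperone Serpinh1, all 21 passed the filter, 0 were called and the medians were 0.02, 0.05 and 0.01. Serpinh1 differed by −0.20 ± 0.15 in TR minus DETR. Of 13 genes for procollagen processing and crosslinking 10 passed and 0 were called. Loxl2, a lysyl oxidase that crosslinks chains, differed by −0.63 ± 0.18 in TR minus DETR (limma adjusted p = 0.335). In that comparison 6 of the 10 were higher in TR and 4 lower, with a median of 0.08. Of 12 genes for breakdown and its inhibitors 9 passed and 0 were called, and Timp4, a metalloproteinase inhibitor, differed by 0.39 ± 0.13 in TR minus SED (adjusted p = 0.354). Of those 9, 5 were higher in TR than in SED and 4 lower, with a median of 0.0006.

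Of 9 collagen receptor genes 7 passed and 0 were called, and Ddr1, a receptor tyrosine kinase for collagen, differed by 0.45 ± 0.21 in DETR minus SED. Among the 7, 5 were higher in DETR than in SED and 2 lower, with a median of 0.06. Of 10 partner genes of the basement membrane 9 passed and 0 were called, and Nid1, which links laminin to type IV collagen, differed by −0.40 ± 0.18 in TR minus DETR. Among the 9, 4 were higher in TR than in DETR and 5 lower, with a median of −0.001. All 10 fibril-binding matrix genes passed and 0 were called. Of the 10, 6 were lower in DETR minus SED, 6 in TR minus SED and 7 in TR minus DETR. The medians were −0.25, −0.22 and −0.13. Dcn, the small proteoglycan that coats fibrils, differed by −0.45 ± 0.16 in DETR minus SED, by 0.32 ± 0.14 in TR minus SED and by 0.78 ± 0.18 in TR minus DETR (limma adjusted p = 0.21). Postn differed by −0.78 ± 0.30 in TR minus SED. Fmod, Comp and Thbs4 of this list are also in the tendon list, and Dcn and Lum are also in a list of fibroblast markers.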

How the data were processed

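Signals of 24 one-colour Agilent arrays, 1 per rat, were used. The authors deposited scanner files with spot intensity, extracted with Agilent Feature Extraction (version 11.5.11.1 in the submitters' processing notes, 11.5.1.1 per the file headers). They also deposited a log2 table whose columns share 1 distribution. On each array the order of probes in that table follows the processed signal (Spearman at least 0.997). The labels name no method of normalization for it. Gene symbols of the collagen rule were read from the deposited table. Control spots (4259 of 62976) were left out, no spot was saturated, spots of a probe were averaged, and each array's 75th percentile was subtracted from log2 of the deposited processed signal. A feature was kept where 8 or more of the 24 arrays had it well above background. R 4.3.3 and limma 3.58.1 fitted group plus slide, with Benjamini-Hochberg adjustment over 20311 features. The fit was also run on simulated arrays of this layout, with noise of each feature equal on every array. That run cannot show how the fit handles the noisier TR arrays, and no result rests on it. The number of arrays limits the precision. The labels number rats within a group only. Each limma p-value sets a difference or slope against the spread between arrays that the terms of the fit leave.

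The chains and gene lists were chosen with earlier results of these data known. Chains named in each comparison were 15 core chains, the 5 with the smallest p and the largest rise and fall. Correlations used 1e+05 permutations. Alternatives covered scaling, background, filter, slide, weights, probes and left-out arrays.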

Additional observations from a re-analysis of the deposited data

Results flagged for a closer look

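Of 69 sets of 8 arrays tested for 1 array far from the rest, 3 had one, and chance marks about 1 in 20. Col1a1 on TR 2 was −1.72, the lowest TR array, from spots of 2747 and 10.61. Col7a1 on SED 8 was −5.94, the lowest SED array, and was not well above background. Col4a4 on TR 5 was −1.29, the highest TR array.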

How the results depend on the processing

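No collagen chain was called between groups under any of the 45 alternative settings, and the smallest adjusted p of a named chain was 0.0684, in the fit with the replicate block. The replicate numbers were not taken as pairs: 2 of 24 same-numbered pairs correlated over 0.1 and 1 of 24 arrays correlated best with its own number. With that block 4 features were called in TR minus SED and 35 in TR minus DETR, the median was −0.51 for fibrillar chains and 0.11 for other chains in TR minus DETR. Over all features, TR minus SED gave 2 with normexp, 1 with the authors' deposited table, 1 without slide 3, 1 at an adjusted p of 0.10 and 2 with every probe tested on its own. TR minus DETR gave 1 with only those groups. Array weights gave 15, 107 and 2 in DETR minus SED, TR minus SED and TR minus DETR, and leaving out TR 2, TR 5, TR 7 and TR 8 gave 1, 2 and 1. Leaving out 1 array gave 0 to 3 in TR minus SED (3 without TR 6 and without SED 3) and 0 to 14 in TR minus DETR (14 without TR 6). The type IV median in TR minus SED was 0.28 with normexp, which moved the median of all features to 0.15, and −0.11 without those 4 TR arrays. In DETR minus SED it was −0.084 with probes well above background on all 24 arrays, 0.38 within slide 3 and −0.055 (without SED 8) to 0.16 leaving out 1 array. In TR minus DETR it was −0.092 with array weights and −0.12 without the 4 TR arrays, and the fibrillar median was −0.49 without slide 3. For the Tnmd term, 2 chains were called with no slide term, 2 without slide 3, 2 without the 4 TR arrays and 2 to 4 leaving out 1 array (2 without TR 5), Col11a1 and Col22a1 each time. The cause of these changes was not tested. The dim slide 3 limits chains near background, such as Col7a1, Col17a1 and Col26a1.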

Other observations

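A probe that the array design describes as type VI, alpha 5 collagen has no symbol in the table and so was outside the rule; it was singled out after its values were seen. It was well above background on 14 of 24 arrays. It ranged from −6.07 through a median of −4.32 to −3.85 in SED, from −5.28 through −4.47 to −3.47 in DETR and from −6.20 through −4.72 to −4.51 in TR, with overlapping groups. TR minus DETR was −1.42 ± 0.33 (limma adjusted p = 0.21), and −1.18 within slide 3. DETR minus SED was 0.83 ± 0.30 (adjusted p = 1), with 1.14 on slide 1 and 0.39 on slide 3. A second probe of that description and the unnamed probes described as alpha-3 type VI and type XII chains did not pass the filter, at 7, 3 and 1 arrays.

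Cd34, a gene of the fibroblast list also singled out after its values were seen, differed by −0.86 ± 0.19 in TR minus DETR (limma adjusted p = 0.192) and was not called. Of the 9 genes of that list past the filter, 5 were higher in TR than in DETR by some amount and 4 lower, with a median difference of 0.11. At an unadjusted limma p under 0.05, 2 of the 9 were higher in TR and 1 lower, against 4.2% and 5.72% of features. Dcn, given above with the fibril-binding genes, is also in this list and was higher in TR.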
